A study of Mus musculus with 18 samples.

Results

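The 86 genes described here encode the proteins of the cytoplasmic ribosome in mouse cells. They were chosen by name from 50600 genes in the files: protein-coding genes with the symbol Rpsa, Rplp0, Rplp1 or Rplp2, or one that starts with Rpl or Rps and a digit, without the kinases named Rps6k and without pseudogenes. The name rule uses no measured value, but the family was chosen with earlier results of these data known. By name 33 belong to the small ribosomal subunit, 49 to the large subunit and 3 to the P stalk of the large subunit. The remaining gene, Rps19bp1, shares the prefix, but it encodes a protein named for binding Rps19 and is no ribosomal protein. Of the 86 genes 82 had enough reads to be tested among 13939 genes.

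The cells were C2C12, a line of mouse skeletal myoblasts that divide in growth medium (GM) and fuse into myotubes in differentiation medium. All 3 lines compared were stable C2C12 lines: one with a control plasmid, one with a px459 plasmid carrying a guide against Mapk6, the gene of the atypical MAP kinase ERK3, and one with px459 carrying a guide against the gene of MK5, a kinase that binds ERK3. Cells of every line were taken while proliferating in GM and on day 2 of differentiation (DM2), and 3 libraries were made from each of the 6 groups. The px459 plasmid expresses Cas9 with the guide, so it acts on DNA, and the RNA of the targeted gene need not fall. The labels do not say whether a line is 1 clone or whether the libraries are separate cultures, so the p-values measure only the spread among these samples.

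A ribosome is built from ribosomal RNA and about equal numbers of copies of its proteins, so the genes of those proteins are among the most strongly expressed in growing cells. Their mRNAs are classic members of the 5′ TOP class: they start with a C followed by a run of pyrimidines, and their translation is held back by proteins such as Larp1 when mTOR signalling is low. In muscle, myoblasts that leave the cell cycle to differentiate are known to reduce ribosome production per cell.

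The sequence around the start of these transcripts is shown first because the TOP motif is what the family is best known to share. Each window covers 15 bases before and 15 bases after an annotated RefSeq start on GRCm38.p6, 5′ to 3′ on the strand of the gene, and the capitals mark the longest run of C and T in it. Where a gene has several starts, the one with the longest run was taken, for every gene alike. The 8 genes below are those that the results turn on most, ordered from the small subunit to the large subunit and the P stalk.
Rps10 (chr17:27635230-27635259, minus strand): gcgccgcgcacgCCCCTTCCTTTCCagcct
Rps6 (chr4:86857353-86857382, minus strand): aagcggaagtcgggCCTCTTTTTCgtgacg
Rps19 (chr7:24884898-24884927, plus strand): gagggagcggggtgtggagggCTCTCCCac
Rpsa (chr9:120127751-120127780, plus strand): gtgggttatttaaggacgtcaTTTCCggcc
Rps27l (chr9:66946071-66946100, plus strand): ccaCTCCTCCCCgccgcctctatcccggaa
Rpl13 (chr8:123102335-123102364, plus strand): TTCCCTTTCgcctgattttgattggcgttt
Rpl7a (chr2:26910792-26910821, plus strand): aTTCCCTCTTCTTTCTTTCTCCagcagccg
Rplp0 (chr5:115559452-115559481, plus strand): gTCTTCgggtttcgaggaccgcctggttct

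The longest run measured 21 bases in Rpl7a, 13 in Rps10, 10 in Rps6, 9 in Rpl13 and Rps27l, 7 in Rps19 and 5 in Rpsa and Rplp0. An entry was found for 66 of the 86 genes. A run of at least 8 bases made of C and T only was present in 27 of them (40.9%), against 14.1% of 16469 protein-coding genes and 13% of 69 mitochondrial ribosomal protein genes. Runs of at least 8 purines on the same strand, searched as a comparison, were present in 3 of the 66 (4.55%) and in 15.2% of all protein-coding genes. A run is a match of letters near an annotated start, which need not be the start used in C2C12 cells. The runs and their counts take in bases before that start, so a run need not be a TOP motif. In Rpl13, Rps27l and Rplp0 the marked run lies wholly before the annotated start. In Rps19 and Rpsa it begins several bases after it.

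Of 23.59 to 31.21 M reads per library (M, 1e6) 17.47 to 23.42 M were counted in genes. Myoblast markers identified the cells as labelled: the summed level of 7 marker genes was 535.7 to 811.7 TPM (transcript abundance per length, summing to 1e6 in a library) in GM, 2066 to 2289 in control DM2, 1085 to 1911 in ERK3-depleted DM2 and 1475 to 2268 in MK5-depleted DM2. Summed markers of endothelial, leukocyte, adipocyte, neural and epithelial cells reached at most 1.38 TPM in any library, and Tie1, Adgre1, Cd3e, Plin1, Cidec, Sox10 and Epcam stood at 0 in all 18. The sum of 5 fibroblast markers was 7.06 to 21.3 TPM in GM and 58.1 to 102 in control DM2. It was 39.5 to 47.9 in ERK3-depleted and 30.9 to 52.8 in MK5-depleted DM2. Most of the rise was that of Dcn, from 5.46 to 10.43 TPM in control GM to 49.22 to 92.58 in control DM2. In control cells Pi16 and Lum also rose, Dpt overlapped, and Pdgfra fell from 5.49 to 6.74 TPM to 3.48 to 4.07. The part of these markers in the DM2 results was not tested. Mapk6 held 119 to 150 CPM (counts scaled to 1e6 per library) in control GM and 105 to 133 in ERK3-depleted GM (edgeR log2 fold change -0.15 ± 0.12, ± standard error, adjusted p = 0.464), and 204 to 219 in control DM2 against 96.8 to 136 in ERK3-depleted DM2 (-0.85 ± 0.12, adjusted p = 2.18e-05). Mapkapk5, the gene of MK5, received only 11 to 32 unique counts per library, on which it did not pass in MK5-depleted GM (log2 -0.55 ± 0.27, adjusted p = 0.232) and was lower than control in MK5-depleted DM2 (-0.68 ± 0.26, adjusted p = 0.0443, and 0.404 without the 4 DM2 libraries described next). In TPM, which shares out reads with several matches, it read 30.9, 33.4 and 35.6 in MK5-depleted GM against 52.8, 59.4 and 54.3 in control, and 42, 47.3 and 58.0 in MK5-depleted DM2 against 70.3, 65.6 and 71.7, with no overlap in either medium. On RSEM expected counts, explained below, edgeR gave a difference of -0.68 in GM, which passed (adjusted p = 0.000246), and of -0.08 at DM2, which did not (adjusted p = 0.348).

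Libraries 1 and 2 of ERK3-depleted DM2 and libraries 1 and 2 of MK5-depleted DM2 stood apart from the others before any gene was tested. Reads outside genes made up 5.55, 7.73 and 3.79% of the 3 ERK3-depleted DM2 libraries and 3.96, 4.11 and 2.84% of the MK5-depleted ones, against 2.40 to 3.22% in the other 12. Transcripts of the mitochondrial genome held 5.14, 8.18 and 4.49% of TPM in ERK3-depleted DM2 and 4.99, 5.2 and 1.33% in MK5-depleted DM2, against 1.60 to 3.02% in the other 12. Library 3 of ERK3-depleted DM2 thus also lay above those 12 in both measures, though below the 4. Myog, the myogenic factor that marks differentiating cells, read 205, 162 and 386 TPM in ERK3-depleted DM2 and 310, 262 and 515 in MK5-depleted DM2, against 479 to 638 in control DM2. The main DM2 results below are therefore also given without these 4 libraries, which leaves library 3 as the sole one of each depleted DM2 group. In such bulk samples a smaller share of cells of one kind and less RNA per cell cannot be told apart.

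The ribosomal protein genes were short and abundant. The 82 tested genes had a median mature length of 605 bases (346 to 2606) and a median level of 1772 TPM (24.7 to 5465), against 2360 bases and 13.2 TPM over all tested genes. They made up 59 of the 159 genes above 1000 TPM. The highest 3 were Rpl41, a tiny basic protein of the large subunit, at a mean of 5465 TPM, Rplp1, a P stalk protein, at 4229 TPM and Rps24, a small subunit protein needed for pre-rRNA processing, at 3838 TPM. The spans of 30 of the genes also hold 58 annotated small nucleolar RNAs.

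Many of these genes have near-identical processed copies in the genome, which limits what can be counted. Reads that map to 1 place only (unique counts, used for the tests) amounted to a median of 30.7% of the reads that the RSEM program assigned to the same gene by sharing out reads with several matches (expected counts). The share was at least 50% in 21 tested genes, under 10% in 25 and under 1% in 5. The loss is visible for Rps2, an essential small subunit protein, which was listed at only 24.7 TPM while its processed copy Rps2-ps10 was given 4279 TPM without a single unique count. Rps23-ps1 was given 2962 TPM with a mean of 13.89 unique counts per library, against 16360 expected counts. Rpl3-ps1 was given 1626 TPM with a mean of 883.7 unique counts, against 29280 expected counts. The 277 pseudogenes named for ribosomal proteins together held 1.85 to 2.51% of TPM per library. This pooled share does not bound the uncertainty of a single gene with a low unique share, which can be far larger, as for Rps2.

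The 4 genes that were not tested were 3 paralogs and a copy. Rpl10l and Rpl39l, known as testis forms of Rpl10 and Rpl39, had 0 unique counts and 0 TPM in all 18 libraries. Rpl3l, the form of Rpl3 known from mature striated muscle, had 13 unique counts over all libraries and a mean of 0.0422 TPM, so no switch to it was detectable after 2 days. Rps27rt, named as a retrotransposed copy of Rps27, was listed at 103.3 TPM, but its unique counts were 1.11% of its expected counts.

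As a family the genes held less of the transcriptome in control cells after 2 days in differentiation medium, and at DM2 they held more of it in both depleted lines than in control. Their share of TPM was 13.60, 14.89 and 13.73% in the control GM libraries and 11.30, 11.96 and 12.18% in control DM2. The ranges did not overlap. In ERK3-depleted cells the share was 15.22, 15.73 and 14.22% in GM and 16.32, 15.87 and 13.88% in DM2, so the ranges of the 2 media overlapped. In MK5-depleted cells it was 14.34, 14.63 and 13.85% in GM and 15.03, 15.16 and 15.50% in DM2, with the DM2 libraries all higher. At DM2 each of the 6 depleted libraries was above each control library, the nearest being ERK3-depleted library 3 at 13.88%. Without the 4 libraries that stand apart, 13.88% and 15.50% remained.

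The small subunit, the large subunit and the P stalk changed in the same direction in these shares. From GM to DM2 in control cells the mean small subunit share went from 5.79 to 4.84%, the large subunit share from 7.23 to 6.13% and the P stalk share from 1.04 to 0.837%. At DM2 the ERK3-depleted means were 6.13, 8.13 and 1.09% and the MK5-depleted means 6.17, 7.97 and 1.08%. The ratio of large to small subunit TPM was between 1.24 and 1.33 over the 18 libraries. It was highest in ERK3-depleted DM2, at 1.315 to 1.33, against 1.252 to 1.279 in control DM2 and at most 1.311 in any other library. With the pseudogenes added to the family, the share was 16.4 ± 0.803% (SD, n = 3) in control GM, 13.7 ± 0.516% in control DM2, 17.5 ± 1.41% in ERK3-depleted DM2 and 17.5 ± 0.371% in MK5-depleted DM2, so control DM2 was again the lowest of these groups.

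**Figure D1:**
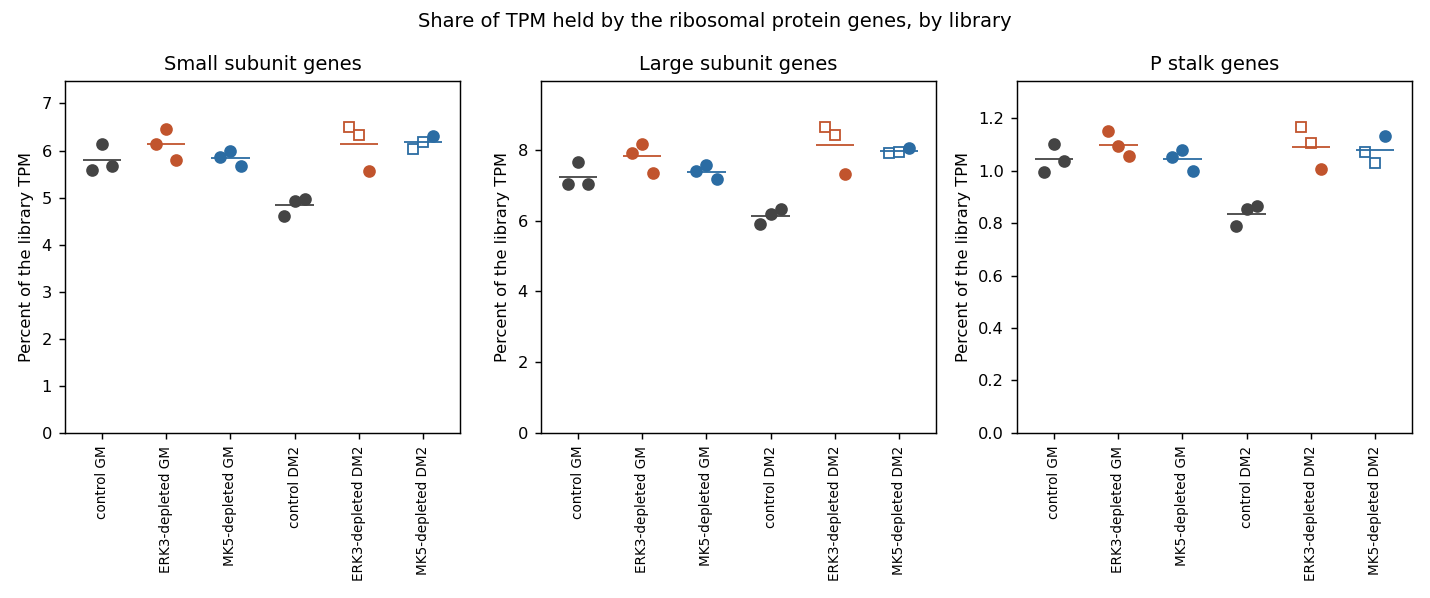
Percent of the TPM of each library (y axis) held by the small subunit, large subunit and P stalk genes, with 3 libraries in each of 6 groups on the x axis; horizontal lines are group means, and open squares are the 4 DM2 libraries that stand apart. In each panel the control DM2 libraries sit below all others, for the small subunit at a mean of 4.84%.

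In control cells 51 of the 82 tested genes fell from GM to DM2 and 2 rose (edgeR quasi-likelihood test, adjusted p under 0.05, where the background was 23.1% of all tested genes lower and 22.5% higher). The median log2 fold change was -0.36, against a median near 0 over all genes. The fall took in 23 of 32 small subunit genes (median -0.40), 25 of 46 large subunit genes (-0.32) and all 3 P stalk genes (-0.49). The groups did not overlap in 66 genes that were lower and 2 that were higher in DM2, against 32.1% and 31.3% of all genes. Leaving out control GM library 2 or control DM2 library 1 brought the calls from 53 to 35.

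The largest fall was that of Rpsa, a small subunit protein that is also known as the laminin receptor (ENSMUSG00000032518.6, chr9:120127689-120132369, plus strand). It read 343.0, 388.5 and 360.0 CPM in control GM and 188.2, 209.3 and 211.8 in control DM2, with no overlap. The log2 fold change was -0.84 ± 0.16 (1.79-fold lower, adjusted p = 0.000377). Rps2 read 12.69, 12.56 and 15.47 CPM in GM and 8.118, 7.979 and 8.993 in DM2 (log2 -0.70 ± 0.22, adjusted p = 0.0166, adjusted p = 0.0715 with length and GC offsets, described below, and 0.0691 and 0.0527 without GM library 3 or DM2 library 2). Rps10, a small subunit protein that is also mutated in Diamond-Blackfan anaemia, fell from 157.4, 199.9 and 159.7 to 101.5, 115.7 and 122.3 CPM (log2 -0.61 ± 0.18, adjusted p = 0.00887). Rps19, the gene most often mutated in that disease, read 240.4, 283.7 and 245.4 CPM in GM and 161.7, 172.9 and 183.0 in DM2 (log2 -0.57 ± 0.16, adjusted p = 0.00588). In all 4 genes the highest DM2 library lay below the lowest GM library.

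Rps6, the S6 kinase substrate on which mTOR activity is often read, could hardly be counted by unique reads, which were 0.493% of its expected counts. It read 5.333, 4.04 and 4.406 CPM in control GM and 3.914, 4.407 and 3.731 in control DM2, and these overlap (log2 -0.19 ± 0.16, adjusted p = 0.367). With RSEM expected counts its log2 fold change was -0.52 (adjusted p = 0.00221).

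Among the large subunit genes the largest falls were those of Rpl13a, which is also known for a role in interferon-induced translational silencing, and Rpl23a, which sits at the exit of the nascent chain tunnel. Rpl13a (chr7:45125558-45128761, minus strand) went from 95.99, 106.2 and 93.12 CPM to 59.43, 58.5 and 57.64, with no overlap (log2 -0.75 ± 0.13, 1.68-fold lower, adjusted p = 0.000119). Rpl23a went from 16.37, 22.88 and 18.62 to 12.27, 11.32 and 11.96 CPM (log2 -0.71 ± 0.18, adjusted p = 0.00363), with unique counts of 1.26% of its expected counts. Rpl41, the most abundant member, read 567.9, 588.1 and 521.2 CPM in GM and 389.4, 419.8 and 455.4 in DM2. Its libraries did not overlap, but the difference did not pass the test (log2 -0.41 ± 0.16, adjusted p = 0.0504).

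Rpl5 and Rpl11, which with 5S rRNA form the complex that binds Mdm2 when ribosome assembly is disturbed, went opposite ways. Rpl5 (chr5:107900502-107909005, plus strand) rose from 39.68, 39.43 and 39.65 to 51.17, 50.01 and 55.2 CPM (log2 0.40 ± 0.11, adjusted p = 0.00686). When reads were counted without regard to strand, its log2 fold change was -0.04 (adjusted p = 0.893). Rpl11 (chr4:136028265-136053428, minus strand) fell from 10.29, 10.54 and 8.811 to 6.861, 7.655 and 7.175 CPM (log2 -0.45 ± 0.18, adjusted p = 0.0458, and 0.138 with length and GC offsets), on unique counts that were 1.47% of expected. The Rpl11 call was lost without any 1 of GM libraries 1 and 2 and DM2 libraries 1, 2 and 3 (adjusted p = 0.0671 to 0.123).

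The other gene that rose in control cells was Rpl7l1, a nucleolar relative of Rpl7 that acts in large subunit assembly. It read 137.6, 131.0 and 134.9 CPM in GM and 167.7, 169.5 and 177.6 in DM2, with no overlap (log2 0.35 ± 0.07, adjusted p = 0.000769). Rpl7 itself (chr1:16101295-16104662, minus strand) fell from 726.3, 849.8 and 741.0 to 579.3, 574.4 and 623.3 CPM (log2 -0.38 ± 0.08, adjusted p = 0.0012).

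The P stalk is the flexible arm of the large subunit that recruits elongation factors, made of Rplp0 as its base and Rplp1 and Rplp2 bound to it. Rplp0 (chr5:115559467-115563727, plus strand) read 1816, 2150 and 1895 CPM in control GM and 1325, 1406 and 1455 in control DM2, with no overlap (log2 -0.49 ± 0.10, adjusted p = 0.000445). Rplp1 fell from 1059, 1213 and 1096 to 765.1, 832.8 and 864.6 CPM (log2 -0.45 ± 0.13, adjusted p = 0.00971).

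In GM the depleted lines differed little from control. In ERK3-depleted cells 2 of 82 genes were higher and none lower (background 3.72% higher and 3.06% lower), with a median log2 fold change of 0.21. With the replicate number as a block 8 genes were higher (background 7.27%), with DESeq2 also 8, and without the 4 DM2 libraries, which enter the shared estimate of spread, 16 (background 8.15%). With length and GC offsets, and with log2(TPM + 1), it was 0. Leaving out control GM library 1 gave 4, leaving out control GM library 2, control GM library 3 or ERK3-depleted library 1 gave 0, and leaving out ERK3-depleted library 2 gave 1. The groups did not overlap in 19 genes, all higher, against 15.8% of all genes.

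The genes that passed in GM were Rps19bp1 and Rpl28, a large subunit protein without a bacterial counterpart. Rps19bp1 read 38.5, 32.58 and 36.7 CPM in control and 49.29, 50.84 and 47.25 in ERK3-depleted GM (log2 0.45 ± 0.10, adjusted p = 0.0195, and 0.0537 with offsets). Rpl28 read 6.986, 5.445 and 6.208 CPM in control and 8.475, 9.011 and 7.838 in ERK3-depleted GM (log2 0.45 ± 0.13, adjusted p = 0.0407). Its unique counts were 3.03% of expected, and the difference was 0.18 with RSEM expected counts (adjusted p = 0.635). The Rpl28 call was lost without any 1 of the libraries other than control library 1 (adjusted p = 0.0525 to 0.211), and the Rps19bp1 call without control library 2, control library 3 or ERK3-depleted library 1 (adjusted p = 0.0634 to 0.128). Rpsa, with 426.6, 396.6 and 351.1 CPM, overlapped control GM (log2 0.11 ± 0.16, adjusted p = 0.731).

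In MK5-depleted GM none of the 82 genes passed the edgeR test (background 4.71% higher and 3.74% lower), and 2 were called by DESeq2. With the replicate block 2 were higher (background 7.96%), without control GM library 1 also 2, and without MK5-depleted library 2 there was 1. The median log2 fold change was 0.07, and 8 genes had groups that did not overlap, against 16.5% of all genes. Rpsa, at 360.7, 416.2 and 366.1 CPM, overlapped control GM (log2 0.07 ± 0.16, adjusted p = 0.856).

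At DM2 the depleted lines differed strongly from control. In ERK3-depleted cells 73 of 82 genes were higher and none lower (background 28% higher and 27.8% lower), with a median log2 fold change of 0.87, and 60 of the 73 were over 1.5-fold higher. The 73 were 30 of 32 small subunit genes (median 0.97), 39 of 46 large subunit genes (0.84), all 3 P stalk genes (1.04) and Rps19bp1. In MK5-depleted cells 69 genes were higher and none lower (background 22.2% higher and 22.9% lower), with a median of 0.66, and 50 were over 1.5-fold higher. These were 27 small subunit (0.71), 38 large subunit (0.63) and 3 P stalk genes (0.78) and Rps19bp1. The 2 comparisons share the control DM2 libraries.

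Without the 4 libraries that stand apart, which leaves 1 library in each depleted DM2 group that is assumed to vary like the other groups, 54 genes were higher in ERK3-depleted (median 0.50, background 12.8%) and 65 in MK5-depleted cells (median 0.58, background 14.6%). The control fall then took in 60 genes (median -0.35, background 25%). In 74 genes every ERK3-depleted DM2 library lay above every control DM2 library, against 29.6% of all genes, and 1 gene lay below, against 30.7%. For MK5-depleted DM2 the number was also 74, against 27.7%.

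Per library, the median difference from the control GM mean over the 82 genes (log2 CPM) was -0.426, -0.355 and -0.293 in control DM2, 0.604, 0.693 and 0.121 in ERK3-depleted DM2 and 0.336, 0.350 and 0.210 in MK5-depleted DM2. Library 3 of each depleted line was the lowest of its group and still above control. In GM the ERK3-depleted libraries had medians of 0.276, 0.272 and 0.050, and the MK5-depleted ones 0.059, 0.124 and 0.019.

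**Figure D2:**
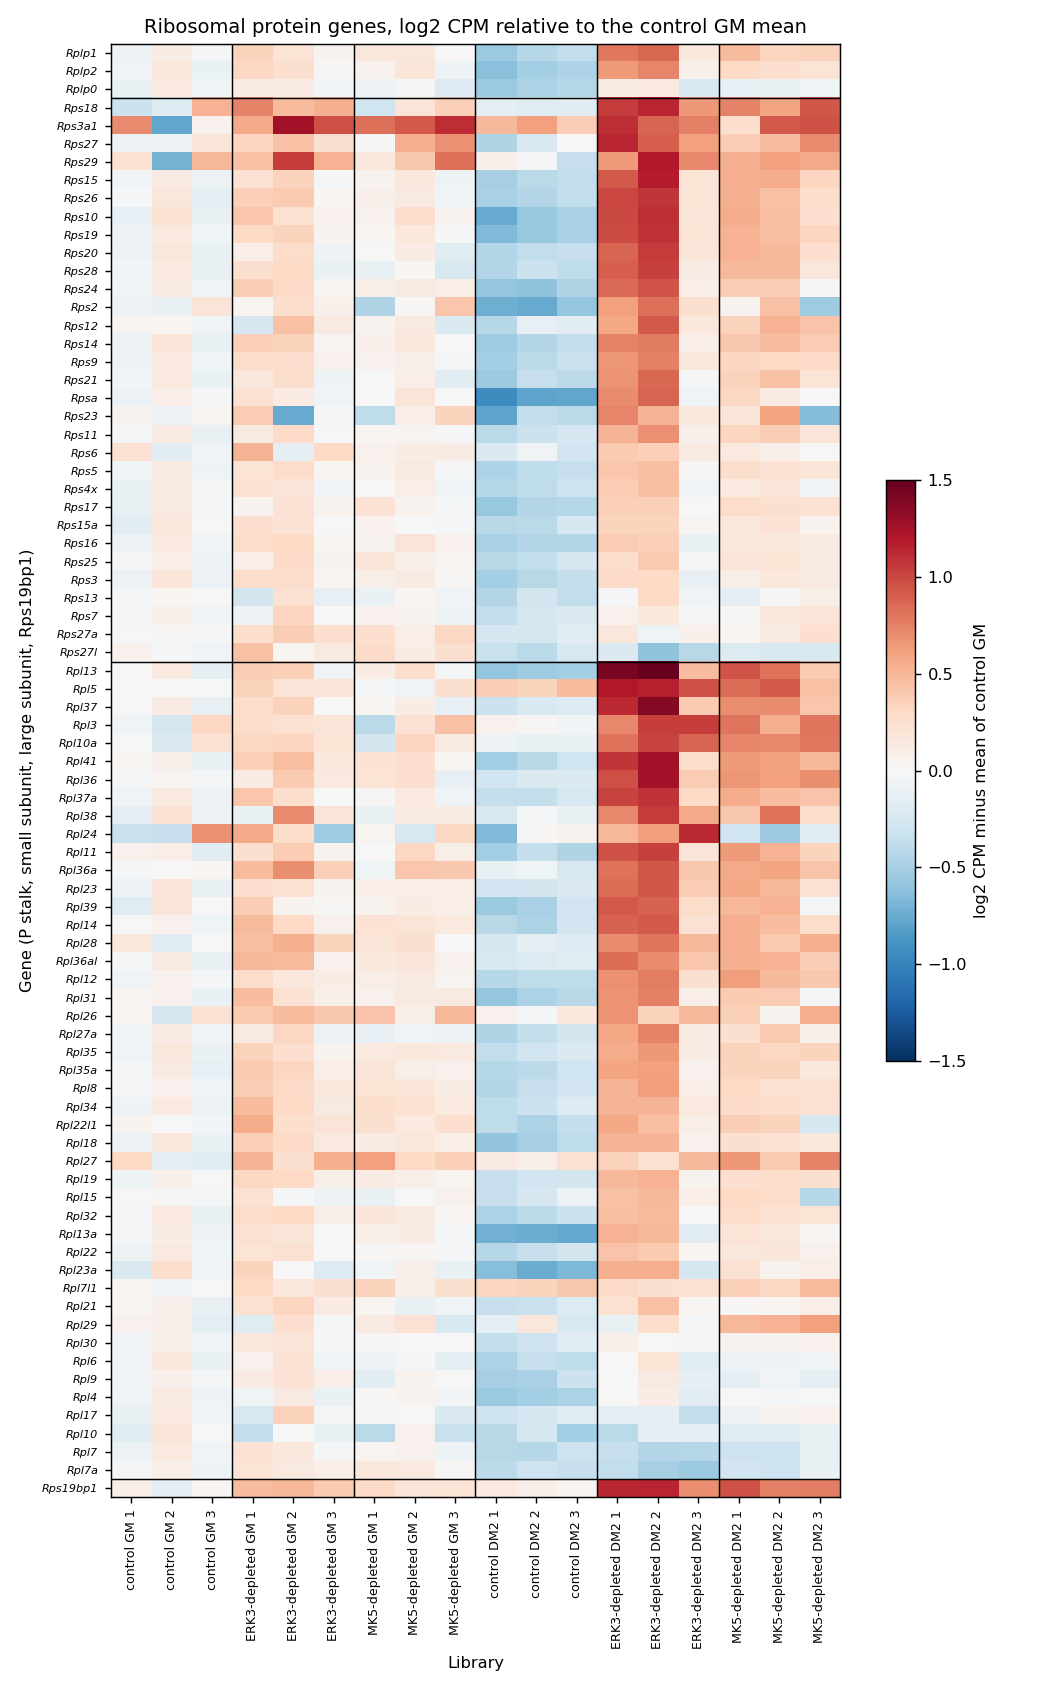
Colour map of log2 CPM relative to the control GM mean for 80 of the 82 tested genes (one line per gene, grouped by P stalk, small subunit and large subunit, with Rps19bp1 apart) in the 18 libraries (columns), with the scale limited to -1.5 and 1.5. Control DM2 is mostly below the GM level (median -0.426 to -0.293 per library over all 82) and ERK3-depleted DM2 libraries 1 and 2 are the highest (0.604 and 0.693).

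In the small subunit Rps10, Rpsa and Rps19 had the largest differences at DM2 in ERK3-depleted cells. Rps10 (chr17:27630418-27636669, minus strand) read 101.5, 115.7 and 122.3 CPM in control DM2. In ERK3-depleted DM2 it read 341.0, 368.6 and 194.0 CPM, and in MK5-depleted DM2 251.8, 234.7 and 203.5. All 6 depleted libraries were above control, and ERK3-depleted library 3 was the lowest of them. The log2 fold change was 1.41 ± 0.18 in ERK3-depleted (2.66-fold, adjusted p = 9.39e-06) and 1.02 ± 0.18 in MK5-depleted cells (2.03-fold, adjusted p = 0.00026), and 0.77 and 0.86 without the 4 libraries.

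Rpsa read 593.5, 665.2 and 349.1 CPM with ERK3 depleted and 452.3, 394.2 and 365.0 with MK5 depleted at DM2, against 188.2, 209.3 and 211.8 in control. The 2 high libraries of ERK3-depleted DM2 are those that stand apart, and library 3 was at the level of control GM. The log2 fold change was 1.40 ± 0.16 (2.64-fold, adjusted p = 6e-06) in ERK3-depleted and 0.99 ± 0.16 (1.99-fold, adjusted p = 0.00018) in MK5-depleted cells, and 0.78 and 0.86 without the 4 libraries.

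Rps19 read 506.0, 541.9 and 295.6 CPM with ERK3 depleted and 368.5, 351.0 and 320.2 with MK5 depleted at DM2, against 161.7, 172.9 and 183.0 in control. No library overlapped with control (log2 1.38 ± 0.16, adjusted p = 5.59e-06, and 1.01 ± 0.16, adjusted p = 0.000122), and the differences were 0.77 and 0.90 without the 4 libraries.

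Rps6 read 6.009, 5.893 and 5.024 CPM with ERK3 depleted and 5.082, 4.804 and 4.526 with MK5 depleted at DM2, against 3.914, 4.407 and 3.731 in control. On these few reads it was higher in ERK3-depleted cells (log2 0.49 ± 0.16, adjusted p = 0.0167), a call that was lost without the 4 libraries (0.32, adjusted p = 0.371) with length and GC offsets (0.07, adjusted p = 0.752), and without control DM2 library 3 or ERK3-depleted DM2 library 1 or 2 alone (adjusted p = 0.0556 to 0.0627). In MK5-depleted cells it did not pass (0.26 ± 0.16, adjusted p = 0.212). With RSEM expected counts it was higher in both, by 1.02 and 0.79 (adjusted p = 9e-06 and 0.000139).

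In the large subunit Rpl13, a core protein of the subunit (chr8:123102350-123105244, plus strand), differed most. It read 26.77, 27.46 and 27.98 CPM in control DM2. In ERK3-depleted DM2 it read 107.7, 132.3 and 55.2 CPM, and in MK5-depleted DM2 76.67, 70.21 and 52.58. The lowest depleted library held more than the highest control library, and the 4 libraries that stand apart were the highest. The log2 fold change was 1.84 ± 0.23 (3.59-fold, adjusted p = 8.4e-06) and 1.28 ± 0.22 (2.42-fold, adjusted p = 0.000299), and 1.0 and 0.95 without the 4 libraries. Unique counts were 4.98% of its expected counts, with which the values were 1.35 and 1.0.

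Rpl41 read 1175, 1336 and 674.5 CPM with ERK3 depleted and 871.4, 845.9 and 788.9 with MK5 depleted at DM2, against 389.4, 419.8 and 455.4 in control. The groups did not overlap (log2 1.33 ± 0.17, adjusted p = 8.78e-06, and 0.99 ± 0.16, adjusted p = 0.000206), and without the 4 libraries the differences were 0.67 and 0.92. Rpl11 read 19.14, 20.1 and 11.25 CPM with ERK3 depleted and 15.36, 14.14 and 12.42 with MK5 depleted at DM2, against 6.861, 7.655 and 7.175 (log2 1.22 ± 0.18, adjusted p = 2.47e-05, and 0.95 ± 0.18, adjusted p = 0.000408), with 0.63 and 0.79 without the 4 libraries.

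Rpl5 read 91.02, 89.08 and 77.07 CPM with ERK3 depleted and 70.82, 75.18 and 53.63 with MK5 depleted at DM2, against 51.17, 50.01 and 55.2 in control. In ERK3-depleted cells all libraries were above control (log2 0.72 ± 0.11, adjusted p = 4.15e-05, and 0.56 without the 4 libraries). MK5-depleted library 3 lay within the control range, and the difference of that line (0.35 ± 0.11, adjusted p = 0.0145) was 0.05 without the 4 libraries (adjusted p = 0.763) and -0.03 on the log2(TPM + 1) scale (adjusted p = 0.829). It also missed the threshold without control DM2 library 2 or MK5-depleted DM2 library 1 or 2 alone (adjusted p = 0.0561 to 0.0781).

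In the P stalk Rplp1 (chr9:61913284-61914542, minus strand) read 1945, 2042 and 1255 CPM with ERK3 depleted and 1559, 1398 and 1426 with MK5 depleted at DM2, against 765.1, 832.8 and 864.6 in control. The groups did not overlap (log2 1.09 ± 0.13, adjusted p = 7.88e-06, and 0.83 ± 0.13, adjusted p = 0.000147), with 0.61 and 0.81 without the 4 libraries. Rplp0, its partner at the base, read 2138, 2158 and 1668 CPM with ERK3 depleted and 1794, 1813 and 1871 with MK5 depleted at DM2, against 1325, 1406 and 1455. All depleted libraries were higher, and the log2 fold change was 0.51 ± 0.10 (adjusted p = 0.000244) and 0.39 ± 0.10 (adjusted p = 0.00334). With length and GC offsets it was 0.10 (adjusted p = 0.205) and 0.05 (adjusted p = 0.615), and the ERK3-depleted call was also lost without the 4 libraries (0.25, adjusted p = 0.104).

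Among the 9 tested genes not called in ERK3-depleted DM2 were Rpl7, Rpl7l1, Rps27l and Rpl10. Rpl7 read 606.0, 568.0 and 572.4 CPM, against 579.3, 574.4 and 623.3 in control DM2, so the groups overlapped (log2 -0.03 ± 0.08, adjusted p = 0.818). Its value depended on how reads were counted: 0.36 with RSEM expected counts (adjusted p = 0.00314) and -0.31 with length and GC offsets (adjusted p = 0.00683). Rpl10, the protein whose loading is a late step of large subunit maturation, read 31.6, 38.27 and 38.13 CPM, against 31.31, 34.89 and 29.51 (log2 0.17 ± 0.13, adjusted p = 0.263). With RSEM expected counts, of which unique counts were 2.37%, Rpl10 was higher by 0.83 (adjusted p = 8.7e-05).

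**Figure D3:**
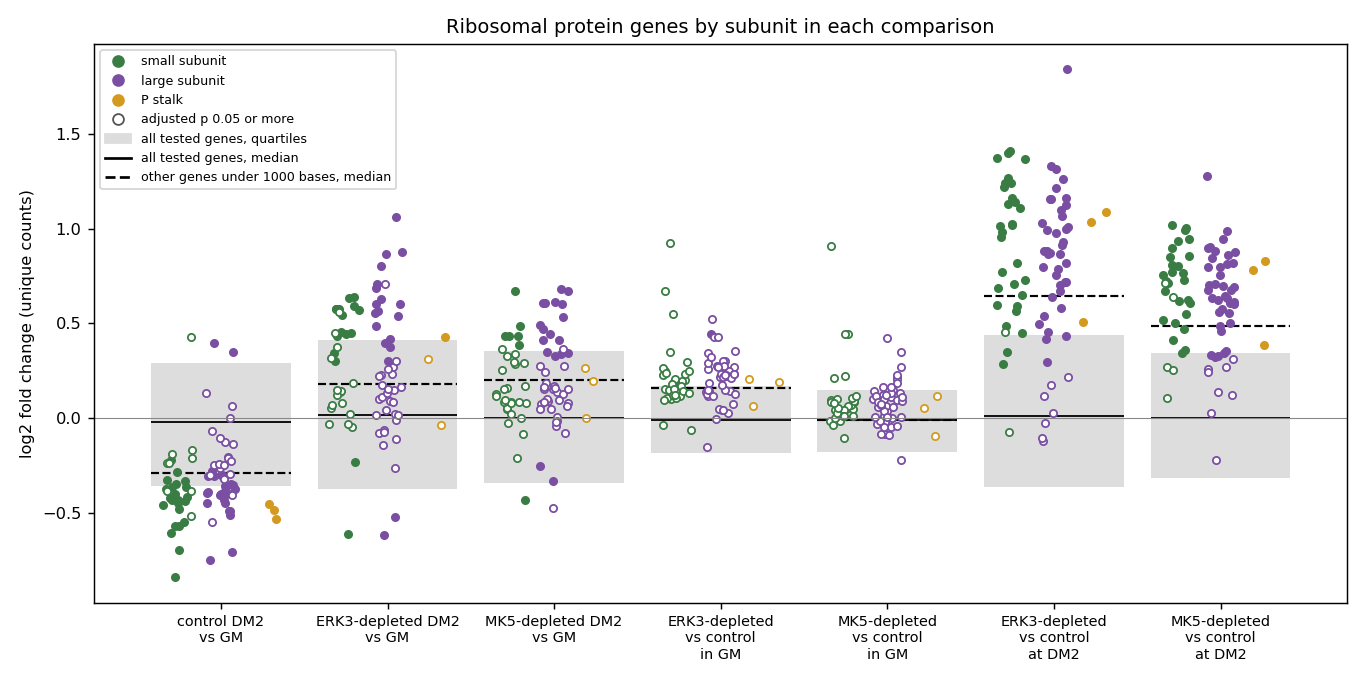
Log2 fold change of unique counts (y axis) of each tested small subunit, large subunit and P stalk gene in 7 comparisons (x axis), with filled points for adjusted p under 0.05, grey boxes for the quartiles and solid lines for the median of all tested genes, and dashed lines for the median of other genes under 1000 bases. The points of control DM2 against GM lie mostly below 0 (median -0.36), and those of the depleted lines against control at DM2 mostly above it (medians 0.87 and 0.66).

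Within the depleted lines genes of the family were called in both directions from GM to DM2. In ERK3-depleted cells 33 genes were higher in DM2 and 4 lower (median 0.26, background 28.9% higher and 26.2% lower), but the direction depended on the libraries and the scale. Without the 4 libraries 3 were higher and 5 lower (median -0.07, background 17.3% and 15.4%), and with log2(TPM + 1) 21 were higher and 23 lower (median 0.03, background 12.8% and 41.8%). The groups did not overlap in 9 genes that were higher and 4 that were lower, against 27.9% and 26.2% of all genes. Leaving out ERK3-depleted DM2 library 2 alone brought the calls from 37 to 21.

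In MK5-depleted cells 23 genes were higher in DM2 and 3 lower (median 0.16, background 24.6% higher and 24.8% lower). Without the 4 libraries 13 were higher and 3 lower (background 19.0% higher and 18.8% lower), and with length and GC offsets 9 were higher and 8 lower (background 26% and 24%). The groups did not overlap in 41 genes that were higher and 3 that were lower, against 28.8% and 28.7% of all genes. The calls went from 26 to 12 without MK5-depleted GM library 1, to 12 without library 3 of that group, to 14 without DM2 library 1 and to 15 without DM2 library 2.

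In ERK3-depleted cells the largest rise was that of Rpl13, from 51.49, 51.35 and 38.48 CPM in GM to 107.7, 132.3 and 55.2 in DM2. Its log2 fold change of 1.06 ± 0.22 (adjusted p = 0.000584) became 0.23 (adjusted p = 0.272) without the 4 libraries. Rpl37, of the large subunit, had 0.81 ± 0.17 (adjusted p = 0.000651), and 0.18 (adjusted p = 0.301) without them. In both genes the rise was carried by libraries 1 and 2.

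Rpl5 rose in every ERK3-depleted DM2 library, from 50.53, 45.41 and 45.27 to 91.02, 89.08 and 77.07 CPM (log2 0.86 ± 0.11, adjusted p = 5.11e-06, and 0.71 without the 4 libraries). Rpl3, which reaches towards the peptidyl transferase centre, had 0.71 ± 0.17 (adjusted p = 0.00217), but unique counts of 2.37% of expected, and 0.22 with RSEM expected counts (adjusted p = 0.149) and -0.11 with log2(TPM + 1). Rpsa went from 426.6, 396.6 and 351.1 to 593.5, 665.2 and 349.1 CPM, which overlap (0.45 ± 0.16, adjusted p = 0.0235), and was -0.17 without the 4 libraries and -0.24 with log2(TPM + 1) (adjusted p = 0.317 and 0.0126). Its call was also lost without GM library 3 or DM2 library 1 or 2 alone (adjusted p = 0.0817 to 0.183).

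The 4 genes that fell in ERK3-depleted cells were Rpl7a, Rps27l, Rpl7 and Rps27a. Rpl7a, of the large subunit (chr2:26910764-26913318, plus strand), went from 198.7, 188.9 and 184.2 to 133.2, 122.1 and 117.3 CPM, with no overlap (log2 -0.62 ± 0.08, adjusted p = 4.18e-06, and -0.70 without the 4 libraries). Rps27l went from 172.4, 129.4 and 139.3 to 109.6, 83.81 and 95.28 CPM (log2 -0.61 ± 0.10, adjusted p = 8.78e-05). Rpl7 had -0.52 ± 0.08 (adjusted p = 5.72e-05), and -0.18 with RSEM expected counts (adjusted p = 0.107). Rps27a, which is made as a fusion with ubiquitin, had -0.23 ± 0.09 (adjusted p = 0.0321) on unique counts that were 2.32% of expected, and 0.26 with RSEM expected counts (adjusted p = 0.0511). The Rps27a call was lost without the 4 libraries (adjusted p = 0.136), and without GM library 1 or 2 or DM2 library 2 alone (adjusted p = 0.0504 to 0.127).

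The 3 that fell in MK5-depleted cells were Rps27l (log2 -0.43 ± 0.10, adjusted p = 0.00211), Rpl7a (-0.33 ± 0.08, adjusted p = 0.00162) and Rpl7 (-0.25 ± 0.08, adjusted p = 0.0187). Without the 4 libraries Rps27l remained at -0.42 (adjusted p = 0.0218), while Rpl7a had -0.19 (adjusted p = 0.125) and Rpl7 -0.11 (adjusted p = 0.494). The Rpl7 call was also lost without GM library 1 or 2 or DM2 library 1 or 2 alone (adjusted p = 0.0585 to 0.0954). The largest rises were those of Rpl5 (0.68 ± 0.11, adjusted p = 7.3e-05), Rpl10a, of the large subunit's mobile L1 stalk (0.67 ± 0.12, adjusted p = 0.00022), and Rps18, of the small subunit head (0.67 ± 0.21, adjusted p = 0.0143). Rpl10a read 24.95, 37.8 and 33.17 CPM in GM and 50.43, 49.74 and 52.37 in DM2, with no overlap. Rps18 was counted on 2.93 to 7.0 CPM in these 6 libraries, and with RSEM expected counts it was 0.07 (adjusted p = 0.641). Its call was lost without GM library 1 or DM2 library 3 (adjusted p = 0.0876 and 0.0615).

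The difference between the response of a depleted line and that of control, tested directly, was higher than 0 for 55 genes and lower for 1 in ERK3-depleted cells (median 0.57, background 14.6% higher and 14.0% lower). In MK5-depleted cells it was higher for 54 and lower for none (median 0.56, background 8.54% higher and 9.48% lower). Both use the same control libraries. By subunit the higher ones were 23 small, 28 large and 3 P stalk genes in ERK3-depleted cells and 20, 30 and 3 in MK5-depleted cells, and Rps19bp1 in both. Without the 4 libraries the numbers were 4 (median 0.28, background 1.92%) and 40 (median 0.49, background 5.03%). The MK5-depleted count fell to 11 without MK5-depleted GM library 3, to 14 without control GM library 2, to 17 without MK5-depleted DM2 library 1 and to 26 without MK5-depleted GM library 1, control DM2 library 1 or control DM2 library 2.

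Short genes in general moved in the same direction in these comparisons. Among 1719 other tested genes under 1000 bases the median log2 fold change was -0.29 for control DM2 against GM (531 lower, 122 higher), 0.64 for ERK3-depleted against control DM2 (1013 higher, 116 lower) and 0.48 for MK5-depleted against control DM2 (809 higher, 70 lower). The medians of the ribosomal protein genes, of which 76 of the 82 are under 1000 bases, were -0.36, 0.87 and 0.66. Within the family the log2 fold changes in ERK3-depleted and MK5-depleted DM2 ran with GC content (Pearson r 0.41 and 0.50, n = 82 genes) and against log2 length (-0.30 and -0.36), as a description over genes that share the same libraries.

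When the trend of each library with gene length and GC content over all genes was taken out (length and GC offsets), the medians of the family moved nearer to 0 and kept their sign, while single genes such as Rps27l, described below, moved away from 0. In control cells 20 genes then fell (median -0.11), a share near the 23.8% of all genes called lower, against 51 genes without the offsets. At DM2 48 genes were higher in ERK3-depleted cells (median 0.32, background 26.9%) and 5 lower (background 22.1%), and 39 were higher in MK5-depleted cells (median 0.22, background 19.3%) and 1 lower (background 16.1%). The response differed, higher, for 29 genes in ERK3-depleted (background 14.6%) and 3 in MK5-depleted cells (background 3.87%). The part of the reads outside genes and of the mitochondrial reads in these differences was not tested.

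Counting the reads with several matches gave larger counts of calls. With RSEM expected counts, on which 83 genes could be tested, 57 fell in control cells (median -0.40, background 22.0%), 79 were higher in ERK3-depleted DM2 (median 0.96, background 27.0%) and 79 in MK5-depleted DM2 (median 0.73, background 22.2%). With RSEM expected counts and offsets together 72 were higher in ERK3-depleted (median 0.45, background 26%) and 60 in MK5-depleted DM2 (median 0.32, background 18.8%). Among the 21 genes with unique counts of at least 50% of expected, 18 fell in control cells, and 19 were higher in ERK3-depleted and 19 in MK5-depleted DM2. On the log2(TPM + 1) scale, which has no scaling between libraries, the median of all genes itself was 0.12 in control DM2 against GM, -0.46 in ERK3-depleted and -0.29 in MK5-depleted DM2, while those of the ribosomal protein genes were -0.24, 0.34 and 0.34.

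**Figure D4:**
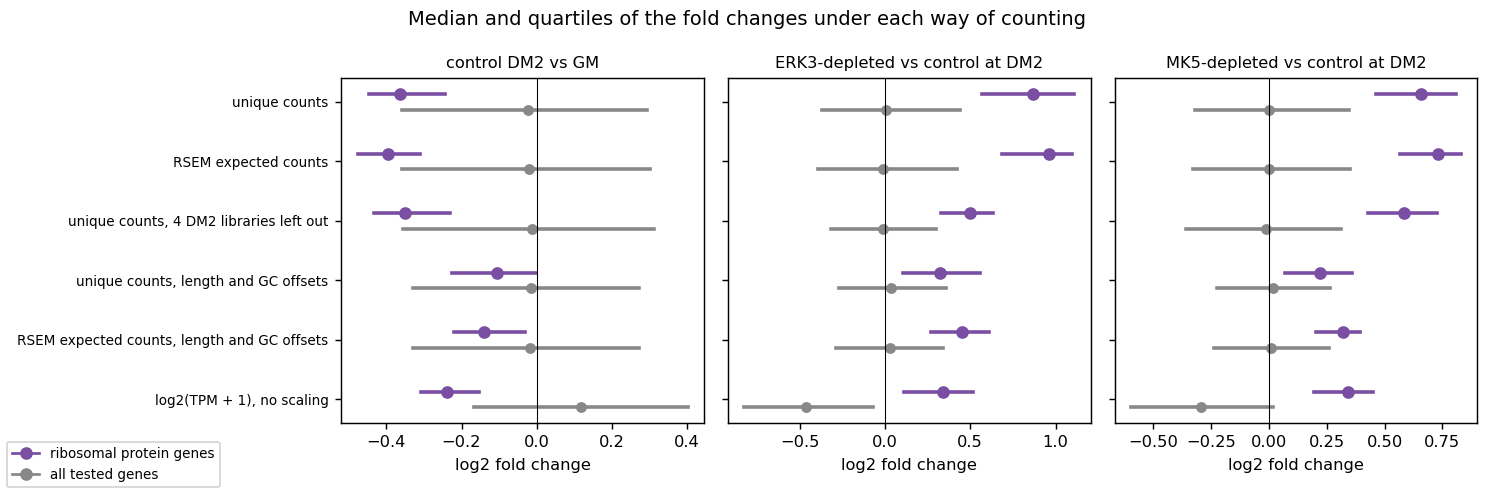
Median (points) and quartiles (bars) of the log2 fold change (x axis) over the tested ribosomal protein genes (purple) and all tested genes (grey) under 6 ways of counting (y axis), for control DM2 against GM and each depleted line against control at DM2. The purple medians keep their sign under all 6, and move nearest to 0 with length and GC offsets (-0.11, 0.32 and 0.22).

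RSEM also gave some of the genes mean transcript lengths that differed between groups, and these lengths enter TPM but not CPM. The length given to Rpl7 was 781, 783 and 795 bases in control DM2. It was 1156, 1163 and 1103 bases in the ERK3-depleted libraries and 1111, 1115 and 912 in the MK5-depleted ones. That of Rps19 was 473 ± 5.45 bases (SD, n = 3) in control DM2, 601 ± 14.7 in ERK3-depleted and 580 ± 27.6 in MK5-depleted DM2. Rplp0 went the other way, from a mean of 1210 to 1124 and 1112 bases. Of the 82 genes 3 were over 1.1 times longer and 7 shorter by that factor in ERK3-depleted than in control DM2, and 3 and 6 in MK5-depleted DM2. In GM it was 0 longer and 1 shorter in each depleted line against control. Lengths also changed within control cells, where 4 genes were longer and 0 shorter in DM2 than in GM. Rpl5, for example, had a mean of 1755 bases in control GM, 1967 in control DM2 and 1649 in ERK3-depleted DM2.

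Paralogs were compared with their parent genes by the ratio of TPM. They include Rpl7l1, which acts in large subunit assembly, so its ratio to Rpl7 does not describe the makeup of ribosomes. Rps27l, a p53 target and close paralog of Rps27, stood at 0.142 of the level of Rps27 in control GM, 0.135 ± 0.0106 (SD, n = 3) in control DM2, 0.0676 ± 0.0202 in ERK3-depleted and 0.0838 ± 0.00478 in MK5-depleted DM2. Its libraries at DM2 did not overlap between the lines and control, and without the 4 libraries that stand apart 0.0888 and 0.0867 remained. The difference from control was -1.04 and -0.69 on the log2 scale, each with p = 0.1 in an exact two-sided permutation test, the smallest that 3 against 3 libraries allow (0.215 adjusted over 28 such tests).

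Rps27l itself read 100.8, 95.89 and 107.3 CPM in control DM2. The ERK3-depleted libraries read 109.6, 83.81 and 95.28 CPM and the MK5-depleted ones 110.1, 109.0 and 108.5 (log2 -0.07 ± 0.10, adjusted p = 0.558, and 0.11 ± 0.10, adjusted p = 0.41), and neither difference passed the test. With length and GC offsets the ERK3-depleted difference was -0.60 (adjusted p = 0.000854). Rps27 was higher in both by 1.16 ± 0.21 (adjusted p = 0.000167) and 0.77 ± 0.20 (adjusted p = 0.00694), but on unique counts that were 0.391% of expected. With RSEM expected counts Rps27 was higher by 1.01 and 0.80.

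Rpl7l1 stood at 0.0237, 0.0259 and 0.027 of the level of Rpl7 in control, ERK3-depleted and MK5-depleted GM, and at 0.038, 0.0413 and 0.0425 in DM2. The ratio was higher in DM2 in all 9 libraries, by 0.69, 0.68 and 0.65 on the log2 scale (exact permutation p = 0.1 each, 0.215 adjusted). At DM2 the ratio in the depleted lines was 0.12 and 0.16 higher than control in TPM but 0.08 and 0.11 lower in unique counts, so its direction there depended on the measure. Rpl22l1 over Rpl22 lay between 0.341 and 0.394 and Rpl36al over Rpl36a between 0.62 and 0.70 in the 6 group means. Both pairs are made of a standard protein and a close relative that can take its place.

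**Figure D5:**
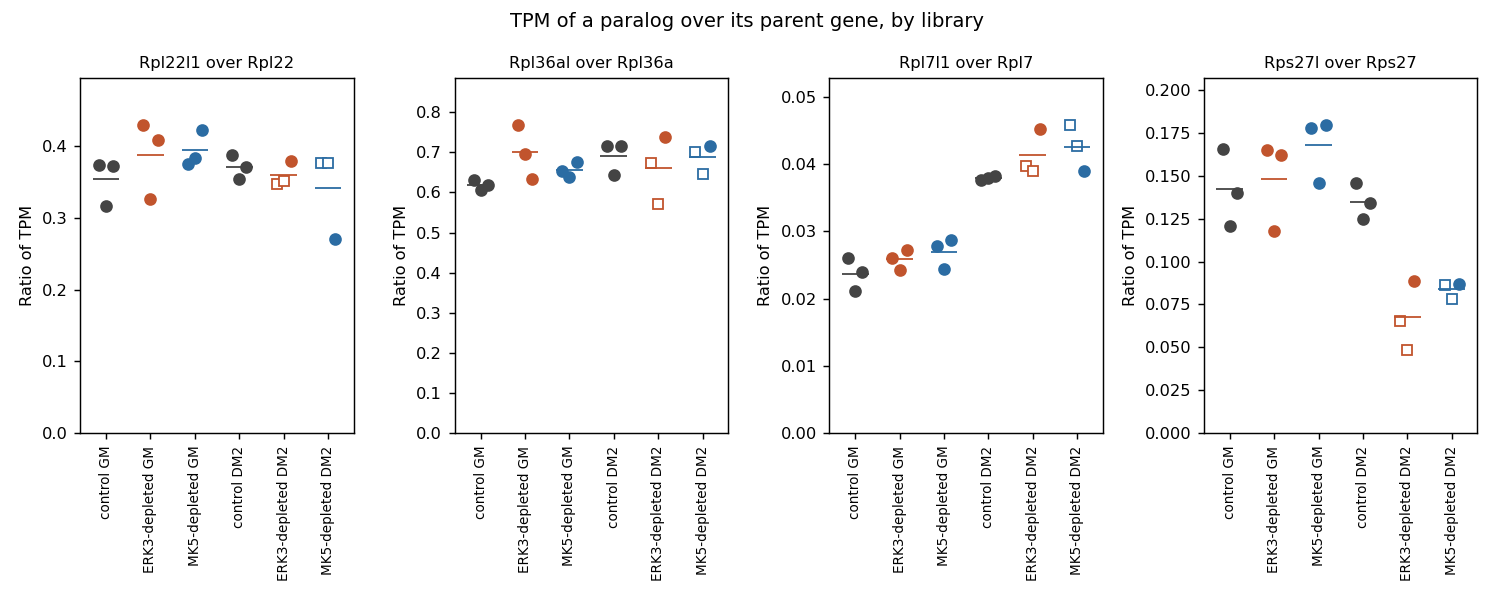
Ratio of the TPM of a paralog to that of its parent gene (y axis) in each library, with group means as lines and open squares for the 4 DM2 libraries that stand apart. Rps27l over Rps27 is lower in both depleted lines at DM2 (0.0676 and 0.0838, against 0.135 in control), and Rpl7l1 over Rpl7 is higher in DM2 than in GM in each line.

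Without length and GC offsets, genes of ribosome assembly and of TOP mRNA control did not follow the ribosomal proteins in control cells. The values of these genes with length and GC offsets are not given here, and the part of gene length in this contrast was not tested. Of 79 tested genes of rRNA processing and ribosome assembly 40 rose from GM to DM2 and 1 fell (median log2 fold change 0.25, beside the background given above). Rrp12, a factor for export of pre-ribosomes, rose by 1.52 ± 0.18 (adjusted p = 2.39e-06), Rrs1 by 0.95 and Gnl3, the gene of nucleostemin, by 0.90. Of 15 RNA polymerase I genes 3 rose, a share near that of all genes, and 1 fell, with the initiation factor Rrn3 at 0.41. Of 16 genes that control TOP mRNAs 10 rose and none fell, among them Myc (0.56), Larp1 (0.52), Mtor (0.28) and Eif4ebp1 (0.53). Of 15 other TOP mRNAs, most of them translation factors, 9 fell and none rose, with Nap1l1 at -0.57, Pabpc1 at -0.37 and Eif4b at -0.37.

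At DM2, with all libraries kept, the share of assembly genes that were higher was near that of all genes in both depleted lines. In ERK3-depleted cells 23 of 79 (29.1%) were higher and 18 (22.8%) lower than in control (median -0.05, background 28% and 27.8%), and in MK5-depleted cells 17 (21.5%) and 8 (10.1%) (median 0.05, background 22.2% and 22.9%). Without the 4 libraries 1 library is left in each depleted DM2 group. The share that was higher then stayed near that of all genes in ERK3-depleted cells and exceeded it in MK5-depleted cells. Nhp2, a core protein of H/ACA snoRNPs, was higher by 1.05 and 0.78, and Wdr36 of the small subunit processome lower (-0.91 and -0.66), with 0.76 and 0.77 for Nhp2 and -0.50 and -0.44 for Wdr36 without the 4 libraries. Of the genes that control TOP mRNAs, Larp1 had 0.35 in ERK3-depleted cells, where it passed (0.11 without the 4 libraries, adjusted p = 0.526), and 0.20 in MK5-depleted cells, where it did not (adjusted p = 0.0891). Mtor had 0.00 (adjusted p = 0.989) and 0.05, and Myc -0.20 (adjusted p = 0.189) and 0.07. Of 15 other TOP mRNAs 9 (60%) were higher and 3 (20%) lower in ERK3-depleted cells. In MK5-depleted cells 8 (53.3%) were higher and 0 lower, beside the same background. Leaving out the 4 libraries left fewer of them higher in both lines, as it did of all genes.

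Fau and Rack1, ribosomal proteins that the name rule leaves out, had the same direction as the family. Fau, made as a fusion with a ubiquitin-like protein, fell by 0.43 in control cells, and Rack1, a scaffold on the small subunit, fell by 0.40. At DM2 Fau was higher by 1.13 and 0.87 and Rack1 by 0.53 and 0.48 in ERK3-depleted and MK5-depleted cells, and without the 4 libraries by 0.66 and 0.82 and by 0.38 and 0.53. Proteins of the mitochondrial ribosome, 77 of which were tested, fell in 34 cases (44.2%) and rose in 4 in control cells (median -0.19, background 23.1% lower and 22.5% higher), but with length and GC offsets 13 fell and 14 rose (median 0.00). They were higher than control in 57 cases (74%) in ERK3-depleted DM2 (median 0.51, 3 lower) and in 55 (71.4%) in MK5-depleted DM2 (median 0.46, none lower), against 28% and 22.2% of all genes. Leaving out the 4 libraries left fewer of them higher in both lines, and also fewer of all genes. With length and GC offsets 36 and 29 of the mitochondrial ribosome genes were higher, against 26.9% and 19.3% of all genes.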

How the data were processed

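Poly-A RNA from 18 libraries was sequenced with a stranded kit, per the labels. The authors' deposited counts are uniquely mapped reads per gene. Per the submitters' processing notes, bcl2fastq 2.17, STAR 2.5.1b and the GRCm38 build were used. The reverse-strand column was used, since it held 92.84 to 95.33% of stranded gene counts. Expected counts and TPM were deposited as RSEM output (version 1.2.28 in the submitters' processing notes). The summary lines of each file (21.7 to 35.8% of reads), which name no gene, were left out. Symbols and positions came from GENCODE M21 (50376 of 50600 identifiers matched). Start sequences came from RefSeq (GRCm38.p6).

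Counts were fitted in edgeR 4.0.16 (R 4.3.3) with filterByExpr, TMM and robust quasi-likelihood, as 1 model with 6 group means (12 residual degrees of freedom). P-values were Benjamini-Hochberg adjusted over 13939 genes per comparison, and genes under 0.05 are called. CPM are TMM-scaled and log2 CPM used a prior count of 2. RSEM expected counts were rounded for edgeR. DESeq2 1.42.0, limma 3.58.1 on log2(TPM + 1) (genes with at least 1 TPM in 3 libraries), spline offsets (5 degrees of freedom) for length and GC, a replicate block and left-out libraries served as alternatives. RSEM expected counts with offsets or without the 4 DM2 libraries, shares of TPM without mitochondrial genes or with libraries left out, and paralog ratios of unique counts were added after seeing the data. Tables were made in Python 3.11.15 with pandas 2.3.3, and exact tests with scipy 1.17.1. The fits were tested on simulated data.

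The replicate numbers come from the labels, which tie them to no shared day or culture. Deviations of same-numbered libraries correlated over 0.1 in all 3 pairs for ERK3-depleted and control GM (0.183, 0.29 and 0.155) and MK5-depleted and control GM (0.182, 0.19 and 0.142). They also did so for ERK3-depleted and control DM2 (0.205, 0.149 and 0.108) and ERK3-depleted GM and DM2 (0.156, 0.291 and 0.29). In these comparisons the libraries were taken as paired only in the alternative fit with the replicate block. The main fit, which gave the main counts and p-values, had no block.

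The members and gene lists were chosen with earlier results of these data known. Per comparison, up to 5 called members with the largest rise and 5 with the largest fall could be named. In any comparison these were added: paralogs with their parents, Rps6, Rplp0, Rpl5, Rpl11, Rps19 and Rpsa, the 3 highest and 3 lowest by mean TPM, and members not tested. Of other lists up to 3 called genes per comparison, and Myc, Mtor and Larp1, are named. Fau and Rack1 are named as ribosomal proteins outside the name rule. Some genes these rules pick are not reported here.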

Additional observations from a re-analysis of the deposited data

Results flagged for a closer look

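The change from GM to DM2 differed between a depleted line and control, by a test of the difference itself in a larger share of the 82 tested ribosomal protein genes than of all genes. In ERK3-depleted cells the difference was higher for 55 genes and lower for 1 (14.6% and 14.0% of all genes), and it was higher for 4 without the 4 DM2 libraries that stand apart (1.92% of all genes). Rpl13 had the largest, 1.61 ± 0.31 on the log2 scale (edgeR adjusted p = 0.00365), followed by Rpsa (1.29) and Rps10 (1.18). Rpl7l1 was the gene with the opposite sign (-0.34 ± 0.10, adjusted p = 0.0235, 0.131 with length and GC offsets, and 0.0528 to 0.0592 without control GM library 2, ERK3-depleted GM library 1 or 3 or control DM2 library 3). Without the 4 DM2 libraries that stand apart the values were 0.76 for Rpl13, 0.66 for Rpsa and 0.53 for Rps10. Rps10 then no longer passed (adjusted p = 0.119).

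In MK5-depleted cells the difference was higher for 54 genes and lower for 0 (8.54% and 9.48% of all genes). With length and GC offsets it was higher for 3 (3.66%, against 3.87% of all genes), and 11 differed without MK5-depleted GM library 3. The named genes were Rpl13 (1.16 ± 0.31, adjusted p = 0.0212), Rps19 (0.96), Rpsa (0.93) and Rps10 (0.90). With length and GC offsets Rpsa had 0.64 (adjusted p = 0.049), and Rpl13 (0.74), Rps19 (0.42) and Rps10 (0.33) did not pass. Without control GM library 2, MK5-depleted GM library 3 or MK5-depleted DM2 library 1 the calls of Rpl13 and Rps10 were lost (adjusted p = 0.0527 to 0.0602 and 0.0504 to 0.0602), for Rps10 also without MK5-depleted GM library 1 or control DM2 library 1. The part of the lower Myog level of the depleted DM2 libraries in these differences was not tested.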

How the results depend on the processing

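In ERK3-depleted and MK5-depleted against control at DM2 the calls ran from 70 to 71 and from 66 to 69 when single libraries were left out. With length and GC offsets 23 were called in control DM2 against GM (29 with the replicate block, 26 with RSEM expected counts and offsets), 17 in MK5-depleted DM2 against GM and 40 in MK5-depleted against control at DM2 (42 with the block), and the response differed in 31 for ERK3-depleted (35 with the block) and 3 for MK5-depleted cells (10 with the block, 8 with RSEM expected counts and offsets). Without the 4 DM2 libraries 8 were called in ERK3-depleted DM2 against GM, with more lower than higher (5 with RSEM expected counts), 16 in MK5-depleted DM2 against GM (15 with RSEM), and the ERK3-depleted response differed in 4 (2 with RSEM). With log2(TPM + 1) and log2(TPM + 0.1) 44 were called in ERK3-depleted DM2 against GM, with 23 lower and 21 higher. In ERK3-depleted against control GM, with 2 calls, there were 8 with DESeq2, 5 without a filter on low counts, 0 on both TPM scales, 8 with the replicate block, 0 with offsets by either count, and 16 or, with RSEM, 15 without the 4 libraries. In MK5-depleted against control GM, with 0 calls, there were 2 with DESeq2, 2 without a filter, 1 with RSEM expected counts, 2 with the replicate block, 1 with offsets (4 with the block, 1 with RSEM) and 3 without the 4 libraries (2 with RSEM). The block changed no other count by over 1.5 times. In the other comparisons the deviations of same-numbered libraries did not correlate over 0.1 in all 3 pairs, which does not show that they were unpaired.

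With single libraries left out, the calls ran from 35 to 49 in control DM2 against GM, 21 to 55 in ERK3-depleted and 12 to 23 in MK5-depleted DM2 against GM, 0 to 4 and 0 to 2 in GM, and 38 to 64 and 11 to 55 for the responses. The ratio of the family's share of TPM between groups ran from 0.826 to 0.864 for control DM2 over GM, 0.988 to 1.07 for ERK3-depleted and 1.05 to 1.08 for MK5-depleted DM2 over GM, 1.05 to 1.1 and 0.997 to 1.04 in GM, and 1.26 to 1.36 and 1.26 to 1.31 at DM2. In shares of unique counts and expected counts the family's share in control DM2 over control GM was 0.732 and 0.751, in ERK3-depleted over control DM2 1.65 and 1.61 (1.17 in TPM without the 4 libraries) and in MK5-depleted over control DM2 1.52 and 1.5. In MK5-depleted DM2 over GM it was 1.11 in expected counts.

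Single genes that changed sign were Rpl5 in control DM2 against GM (-0.039 unstranded) and MK5-depleted against control DM2 (-0.025 on both TPM scales), and Rpl7 in ERK3-depleted against control DM2 (0.356 with RSEM) and MK5-depleted DM2 against GM (0.00 with RSEM and offsets). In ERK3-depleted DM2 against GM they were Rpl3 (-0.112 on both TPM scales, -0.16 with RSEM without the 4 libraries), Rps27a (0.262 with RSEM, 0.323 with offsets too) and Rpsa (-0.237 on both TPM scales, -0.167 without the 4 libraries, -0.249 with RSEM). Rps18 in MK5-depleted DM2 against GM had -0.106 and -0.107 on the TPM scales and -0.133 with RSEM and offsets, and Rpl28 in ERK3-depleted GM had -0.029 with RSEM and offsets. No paralog ratio could reach the threshold with 3 against 3 libraries. Genes with few unique counts for their TPM, such as Rps6, Rps27 and Rps18, are limited by reads with several matches.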
